A study of Mus musculus with 22 samples.

Results

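The genes described here encode the nuclear part of the mitochondrial respiratory chain and ATP synthase. They were taken by symbol from the scanner files: every non-control probe whose gene name begins with Ndufa, Ndufb, Ndufc, Ndufs, Ndufv, Sdha to Sdhd, Uqcr, Cox4 to Cox8 or Atp5. This gave 110 probes of 75 genes, out of 41174 probes and 29273 gene names or unnamed probes on the array, and 1 probe a gene was used, the one of highest mean signal. By complex, 30 genes belong to complex I, 4 to complex II, 6 to complex III, 18 to complex IV and 16 to complex V, and 1 (Ndufaf1) makes an assembly factor of complex I. All 75 matched the RefSeq gene table, where Atp5f1 is now Atp5pb, Atp5s is Dmac2l and Uqcr is Uqcr11. The array's names are kept below, and Atp5s is counted with complex V by that name.

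The samples are total RNA from frozen slices of whole mouse brain. There were 22 Agilent arrays of 2 colours, and on every array a brain labelled knockout met a control brain. The sample titles name Agtr2 at E15 and say only knockout at P1, which is taken here to be the same gene. At embryonic day 15 (E15) there were 8 knockout and 6 control animals on 14 arrays. At postnatal day 1 (P1) there were 4 and 4 animals on 8 arrays. Each knockout animal was run in both dye orientations except E15 knockouts 3 and 4, which have 1 array each. For E15 knockouts 1 and 2, the 2 orientations met different control animals, so dye and control animal are mixed there. Agtr2 encodes the type 2 receptor for angiotensin II. The strain, the kind of Agtr2 allele, sex, and whether P1 control and knockout pups were littermates are not given in the sources used here. The control animals of P1 carry no numbers in the labels and are taken here to be 1 animal for each knockout animal, shared by its 2 dye orientations, and carry its number. Several E15 control animals were run against more than 1 knockout animal.

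Oxidative phosphorylation passes electrons from NADH through complex I, or from succinate through complex II, to ubiquinone, then through complex III and cytochrome c to complex IV, where oxygen is reduced. The protons pumped on the way drive ATP synthase, complex V. Most subunits are encoded in the nucleus and a few in mitochondrial DNA, and in the developing brain the supply of ATP is known to shift towards oxidative phosphorylation around birth. Factors such as NRF1, the ETS factor GABP and YY1 are known regulators of nuclear subunit genes.

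Those factors can be looked for by their motifs. Of the 75 genes, 62 had a RefSeq promoter window, 250 bases before to 50 bases after the gene's start (build GRCm38.p6). On either strand, the NRF1 motif (GCGCA, any base, GCGC) was in the windows of 16 genes (25.8%, against 5.19% of 27025 genes with a window), CCGGAAG (the ETS core bound by GABP) was in 16 (25.8%, against 9.93%), and AAGATGGC (YY1) in 10 (16.1%, against 3.19%). The 3 motifs were searched separately, and 36 of the 62 genes (58.1%, against 16.4%) held at least 1 of them. The promoter stretches below are shown because Ndufa5 and Ndufs5 were higher at P1 and because Cox6b1 differed most between scan days in the same animals. Capitals mark the motif, NRF1 for Ndufa5 and Ndufs5, and the reverse complement of the GABP motif for Cox6b1. The stretch of Ndufa5 is chr6:24527642-24527731, that of Ndufs5 is chr4:123718210-123718299 and that of Cox6b1 is chr7:30626115-30626157, all on the minus strand and upstream of the start.
Ndufa5: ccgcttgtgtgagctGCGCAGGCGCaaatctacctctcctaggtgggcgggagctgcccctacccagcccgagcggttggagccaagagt
Ndufs5: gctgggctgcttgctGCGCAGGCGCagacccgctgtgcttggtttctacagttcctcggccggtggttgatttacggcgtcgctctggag
Cox6b1: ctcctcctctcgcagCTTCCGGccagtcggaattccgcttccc
A match of letters is a description and not a site that was shown to be bound. Among the other genes higher at P1 that had a window, Atp5o held the NRF1 motif and Atp5f1 the YY1 motif. Ndufa10 and Ndufa4 held none. A link between motif and change with age was not tested.

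Levels below are normalised log2 intensities of 1 probe, so a level can be compared between animals but not between genes. Of the 75 genes, 74 were well above background in at least 0.5 of the channels of an age and were tested. Cox8c, an isoform known from testis, was well above background in 1 of 14 E15 and 1 of 8 P1 control channels. As a check on the labels, the Agtr2 probe did not separate the genotypes. It was well above background in control channels on 13 of 14 E15 and 7 of 8 P1 arrays, and in knockout channels on 13 and 6. Its log2 knockout over control ran from -2.10 to 0.87 in the 8 E15 replicates and from -0.13 to 0.29 in the 4 P1 replicates, and it was not called by limma at E15 (adjusted p = 0.779) or P1 (adjusted p = 0.713). Whether this probe lies in the deleted part of the gene is not given in the sources used here, so it neither bears out nor contradicts the labels, and every genotype named below is the one on the label. The E15 arrays were scanned on 3 days and read with Feature Extraction 8.1.1.1. The P1 arrays were scanned on a day of their own and read with version 8.5.1.1, so age, scan day and software version cannot be told apart between the ages. Markers of other cell types also moved with age in control brain, in which 16.9% of all features were called higher at P1 and 16.3% lower. Of 10 neuron genes 5 were higher, of 7 astrocyte genes 4 and of 7 oligodendrocyte genes 3, with none lower. Of 16 genes of progenitors and cell cycle 2 were higher and 10 lower, and of 7 erythroid genes 6 were lower. Lower calls also fell on 3 of 8 endothelium and pericyte genes and 3 of 10 genes of meninges and fibroblasts, with none higher. Of 8 microglia genes 2 were higher and 0 lower, of 6 choroid plexus genes 1 and 2, and of 19 skeletal muscle genes 1 and 0. With channels centred on their medians, 2 neuron genes were higher and 9 progenitor genes lower, beside 12.3% and 20.6% of all features. The part of these markers in the results was not tested. In whole tissue, fewer cells of a type and less RNA per cell cannot be told apart.

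In control brain, 9 of the 74 respiratory chain genes were higher at P1 than at E15 and 3 were lower, by limma with Benjamini-Hochberg adjustment over 26018 features. Over all features, 33.2% were called, so a smaller share of these genes than of the array passed the test. The median difference of the 74 was 0.09 on the log2 scale, beside -0.03 over all features, and 44 of 74 were above 0. When the channels were only centred on their medians, in place of the quantile step used here, the median was -0.38, beside -0.07 over all features, and the calls were 0 higher and 18 lower of 74, beside 12.3% and 20.6% of all features. So the common direction of the genes with age depends on the scaling. Of the 74 genes, 37 went from above to below 0 with that scaling and none the other way.

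**Figure D1:**
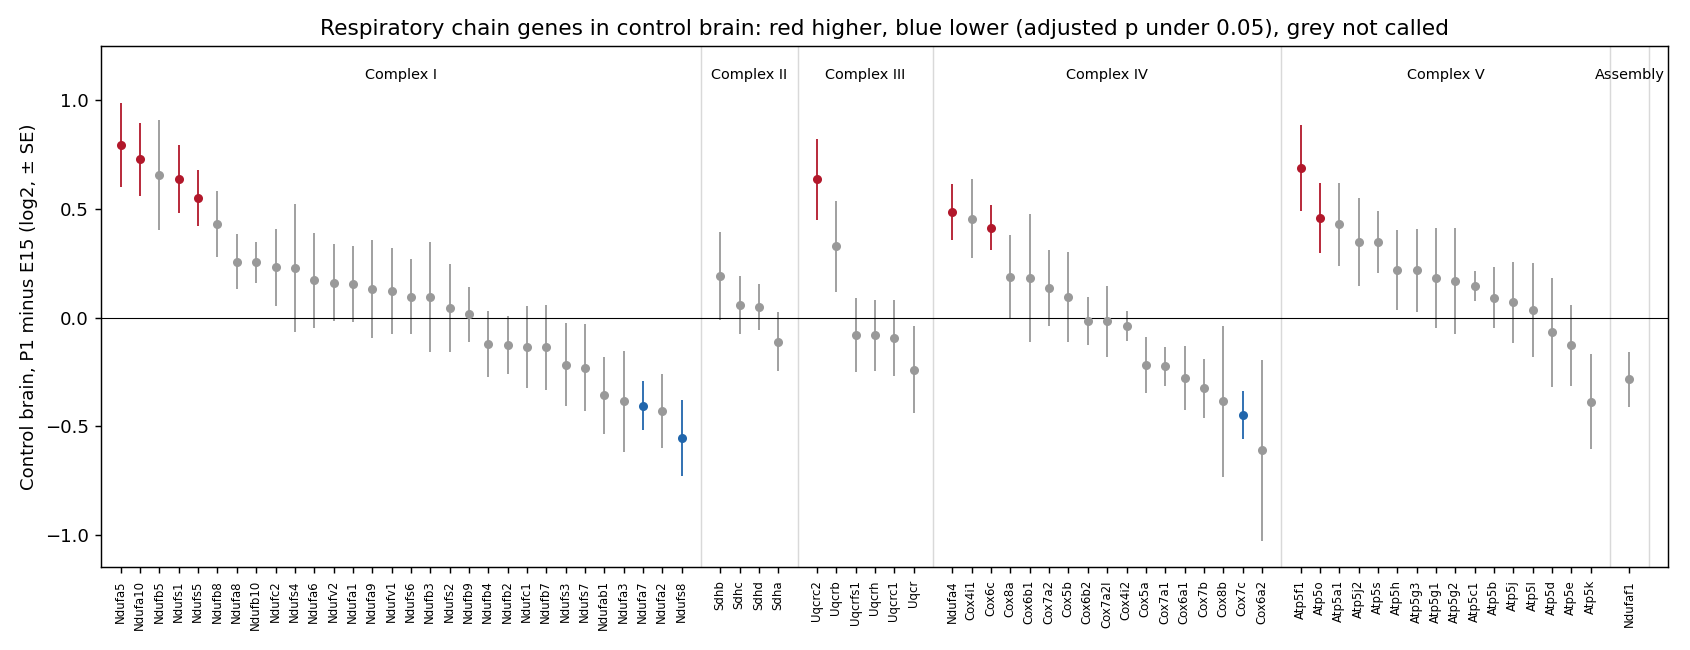
Difference in control brain between P1 and E15 (log2, vertical axis, bars ± SE, 4 and 6 animals) for the 74 tested genes by complex. The 9 red points (called higher) lie between 0.41 and 0.79, and the 3 blue points (called lower) lie between -0.56 and -0.41.

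Complex I, which takes electrons from NADH, held 4 of the higher genes and 2 of the lower among 30 tested, with a median difference of 0.11. Ndufa5, an accessory subunit of the arm that binds ubiquinone, read 10.38, 10.45, 10.87, 11.06, 11.09 and 11.18 in E15 controls 1 to 6. At P1 it read 11.90, 11.30, 11.41 and 11.92. Every P1 animal was above every E15 animal, and the difference was 0.79 ± 0.19 (SE; 1.73-fold; limma, adjusted p = 0.0101).

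Ndufa10, another accessory subunit, read 7.88, 8.20, 8.51, 8.79, 8.66 and 8.58 at E15. At P1 it read 9.04, 9.24, 9.36 and 9.02, again with no overlap, and differed by 0.73 ± 0.17 (SE; limma, adjusted p = 0.00719). Ndufs1, the largest core subunit with iron-sulphur clusters, rose from 9.73 ± 0.24 (SD, n = 6) to 10.37 ± 0.31 (SD, n = 4), and the lowest P1 animal at 10.03 was above the highest E15 animal at 9.93 (limma, adjusted p = 0.0101). Ndufs5 rose from 11.99 ± 0.15 (SD, n = 6) to 12.54 ± 0.30 (SD, n = 4), also without overlap (limma, adjusted p = 0.00849).

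The lower complex I genes overlapped between ages. For the genes above and below that did not overlap, the share of all features without overlap was not counted. Ndufs8, a core iron-sulphur subunit, read 8.54, 8.51, 8.54, 8.83, 9.13 and 8.96 at E15. It read 7.87, 8.31, 8.65 and 7.96 at P1, a difference of -0.56 ± 0.17 (SE; limma, adjusted p = 0.0314). P1 control 3 lay within the E15 range and the other 3 below it. The call passed in 14 of 21 alternative settings, in which the difference ran from -0.85 to -0.31, and was lost without E15 control 4, 5 or 6 or P1 control 1, 2 or 4. Ndufa7 differed by -0.41 ± 0.11 (SE; limma, adjusted p = 0.0182) in the probe used, while its second probe differed by -0.05, and the call was lost without P1 control 2 or 3. Ndufa2, also below 0, differed by -0.43 ± 0.17 (SE) and was not called (limma, adjusted p = 0.0727).

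Of complex II, which oxidises succinate and also belongs to the citric acid cycle, none of the 4 genes was called in control brain. Sdhb, the iron-sulphur subunit, differed by 0.19 ± 0.20 (SE), and the membrane anchors Sdhc and Sdhd by 0.06 ± 0.13 and 0.05 ± 0.10. Sdha, the flavoprotein, differed by -0.11 ± 0.13 (SE). None of these 4 differences exceeded its standard error.

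Of complex III, which passes electrons from ubiquinol to cytochrome c, 1 of 6 genes was called. Uqcrc2, a core protein of the matrix side, read 10.72, 10.09, 10.88, 11.18, 11.01 and 11.03 at E15. It read 11.45, 11.29, 11.38 and 11.69 at P1. All P1 animals were above all E15 animals, a difference of 0.64 ± 0.19 (SE; limma, adjusted p = 0.0241). Its second probe, well above background in 18.2% of the control channels, differed by -0.07, and the mean of both probes gave 0.23 and was not called (limma, adjusted p = 0.0599). The call was also lost without P1 control 1 or 4. Uqcrb, the other gene above 0 in this complex, differed by 0.33 ± 0.21 (SE) and was not called.

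Complex IV, cytochrome c oxidase, held 2 higher genes and 1 lower among 17 tested, with a median of -0.02. Ndufa4, a small protein first assigned to complex I and now to complex IV, rose by 0.49 ± 0.13 (SE; limma, adjusted p = 0.0144). Cox6c read 11.58, 11.66, 11.75, 11.85, 11.80 and 11.28 at E15. At P1 it read 11.996, 12.09, 12.08 and 12.09, all above the E15 animals (limma, adjusted p = 0.012).

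Cox7c went the other way. It read 10.51, 10.62, 10.53, 10.48, 10.57 and 10.70 in the E15 controls. At P1 it read 9.79, 10.38, 10.31 and 9.99, all below the E15 animals, and the difference was -0.45 ± 0.11 (SE; limma, adjusted p = 0.0112).

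Several complex IV subunits come as pairs of a widely expressed and a tissue-restricted isoform, and no member of these pairs was called in control brain. Cox4i1, the common form, differed by 0.46 ± 0.18 (SE; limma, adjusted p = 0.0758), and Cox4i2, a form known from lung and from low oxygen, by -0.04 ± 0.07 (SE). Cox6a1 differed by -0.28 ± 0.15 (SE), and Cox6b1 by 0.18 ± 0.29 (SE), where the testis form Cox6b2 gave -0.02 ± 0.11 (SE). Cox7a2 and its relative Cox7a2l gave 0.14 ± 0.17 and -0.02 ± 0.16 (SE). Cox7b and Cox8a gave -0.33 ± 0.14 and 0.19 ± 0.19 (SE).

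Of the 3 forms known from heart and skeletal muscle, Cox6a2 and Cox8b were highest in the animals with most muscle RNA, and Cox7a1 was not. Cox6a2 read 9.20, 7.55, 6.76, 6.72, 7.33 and 6.93 in E15 controls 1 to 6, and 6.91, 6.86, 6.78 and 6.67 at P1. Cox8b read 8.12, 6.39, 6.20, 6.05, 6.47 and 6.26 at E15, and 6.10, 6.08, 6.15 and 6.46 at P1. E15 control 1 stood apart in both genes. In the same animal the mean level of 19 skeletal muscle genes was 10.19, where the other E15 controls ran from 6.57 to 7.93 and the P1 controls from 6.79 to 6.92. Among knockout animals the highest mean of the muscle genes was 9.28, in E15 knockout 8, which also had the highest Cox6a2 and Cox8b of its group. Cox7a1, the third muscle form, was 7.32 in E15 control 1, within the range of the other E15 controls (7.09 to 7.60). The part of muscle RNA in these values was not tested.

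**Figure D2:**
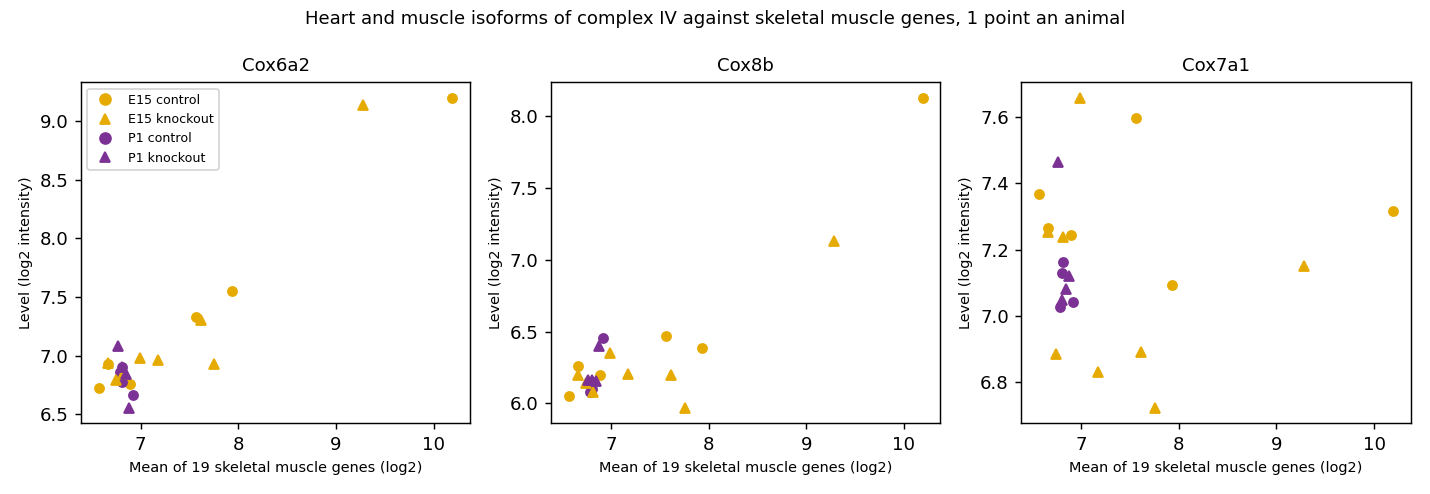
Level of Cox6a2, Cox8b and Cox7a1 (log2 intensity, vertical axes) against the mean level of 19 skeletal muscle genes (log2, horizontal axes), 1 point an animal, 22 animals. E15 control 1 (muscle mean 10.19) and E15 knockout 8 (9.28) are the rightmost points and the highest for Cox6a2 and Cox8b, and lie among the others for Cox7a1.

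Complex V, ATP synthase, had the highest median of the 5 complexes at 0.17, with 2 of 16 genes called higher and 13 of 16 above 0. Atp5f1, subunit b of the peripheral stalk, read 11.73, 10.83, 11.58, 11.92, 11.78 and 11.93 at E15. It read 12.18, 12.33, 12.21 and 12.55 at P1, a difference of 0.69 ± 0.20 (SE; limma, adjusted p = 0.021), which was not called without P1 control 4. Its second probe, well above background in all control channels, differed by 0.10. Atp5o, the stalk protein that meets the catalytic head, differed by 0.46 ± 0.16 (SE; limma, adjusted p = 0.0479), and its ages overlapped, since E15 control 5 at 12.86 lay above P1 control 2 at 12.69. This call was lost on leaving out any 1 animal except E15 control 5 or P1 control 2.

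The genes Atp5g1, Atp5g2 and Atp5g3 encode the same mature subunit c of the rotor ring. They differed by 0.18 ± 0.23, 0.17 ± 0.24 and 0.22 ± 0.19 (SE), and none was called. Other probes went the other way, at -0.17 for Atp5g1 and at -0.55 and -0.33 for Atp5g2. Against the median of the complex, Atp5k (subunit e) differed by -0.39 ± 0.22 and Atp5e (subunit epsilon of the head's central stalk) by -0.13 ± 0.19 (SE).

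**Figure D3:**
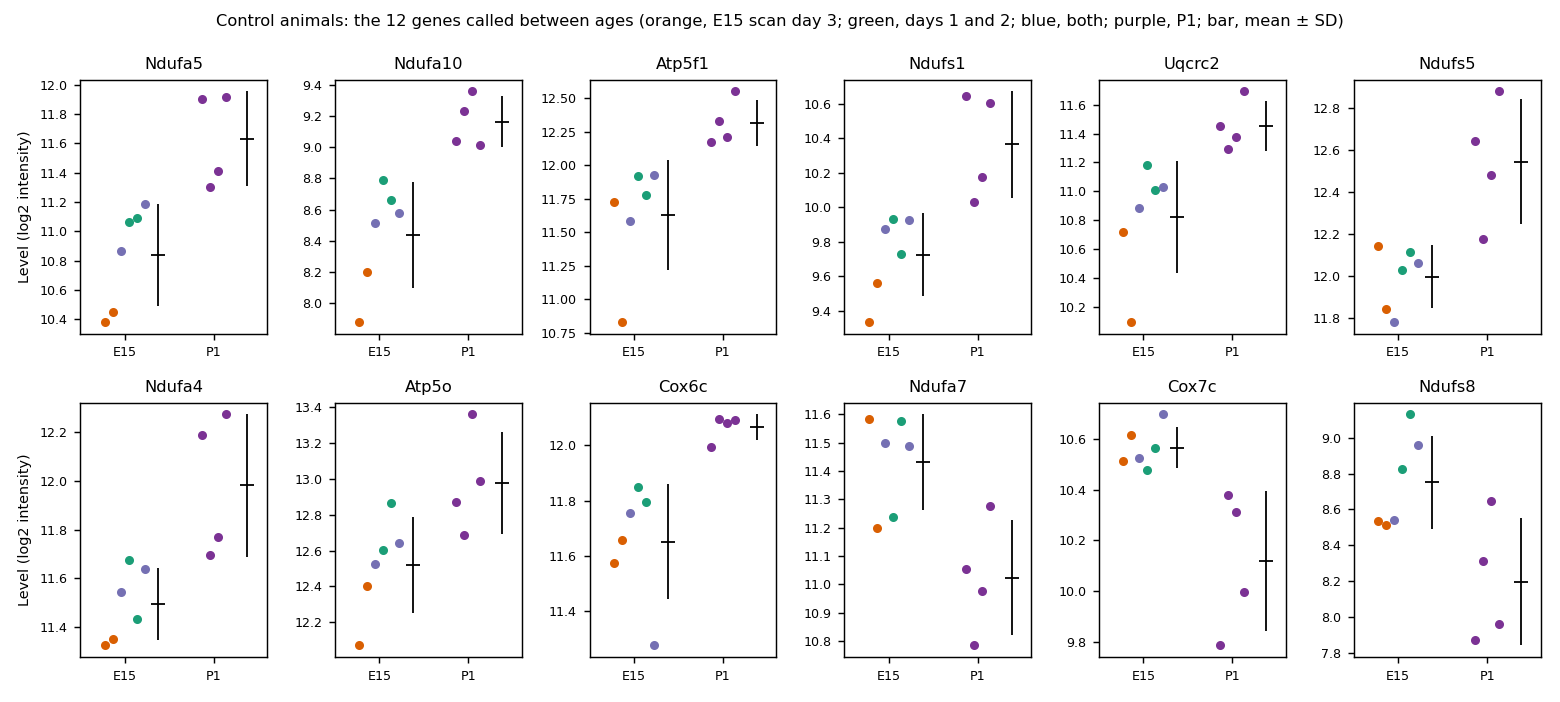
Level (log2 intensity) of the 12 called genes in each control animal at E15 (6 points) and P1 (4 points), coloured by scan day, with mean ± SD beside. For Ndufa5, the 2 animals scanned only on day 3 read 10.38 and 10.45 and are the lowest of all 10.

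The level of the genes as a group followed the day on which an E15 array was scanned. Each gene was centred on the midpoint between its E15 mean and its P1 mean in its channel. The median over the 75 genes was then -0.36 and -0.27 in the 2 E15 controls scanned only on day 3. It was 0.05 and 0.22 in the 2 scanned only on days 1 and 2, and -0.03 and 0.14 in controls 3 and 6, which had arrays on day 3 and on another day. The 4 knockout animals of day 3 lay between -0.51 and -0.25 and the 4 of days 1 and 2 between 0.11 and 0.26. At P1, controls lay between -0.05 and 0.07 and knockouts between -0.01 and 0.26. The all-features median used features well above background on at least 0.5 of the arrays. Each of these was centred on its mean over the animals of its channel. That median stayed between -0.07 and 0.04 in all 22 animals. The normalization and the centring hold it near 0, so it cannot show whether the shift is particular to these genes. Other genes of like signal were not compared.

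Controls 3 and 6 give the same animal with the same dye on day 3 and on another day. In control 3, the genes were lower on day 3 than on day 1 by a median of -0.59 (62 of 73 measured genes below 0), beside 0.01 over all features. In control 6, day 3 against day 2 gave a median of -0.38 (54 of 67 below 0), beside 0.03. All 30 complex I genes were below 0 in control 3, and 21 of 27 measured in control 6. Complex IV moved least, with medians of -0.17 and -0.11. Cox6b1 was lower on day 3 by -1.73 in control 3 and by -1.83 in control 6, and Ndufb3 by -0.75 and -0.86. Each is 1 array against 1 array, so there is no test. The medians over all features are held near 0 by the normalization, and other genes of like signal were not compared.

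The comparison of ages was also made with each part of the E15 arrays. This division was made after the genes were seen to be lower on day 3, so the direction of the change in the counts follows from it, and the parts hold different animals. Against the arrays of days 1 and 2, 7 genes were higher and 16 lower at P1, with a median of -0.11 (34.7% of all features called). Against the arrays of day 3, 31 were higher and 1 lower, with a median of 0.38 (36.1% of all features called). By direction alone, 37 of 74 genes had the same sign in both. The shares of all features with the same sign in both, or called in both, were not counted. Of the 10 genes called in both, 3 had opposite signs: Cox6b1 (-0.44 and 1.12), Atp5e (-0.44 and 0.40) and Ndufb3 (-0.36 and 0.54), each against days 1 and 2 first and day 3 second.

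The 12 genes called over all E15 arrays had the same sign against both parts, which is no independent support, since both are in the pooled comparison and share the 4 P1 animals. Of these, 7 passed the test against both: Ndufa5 (0.53 and 1.36), Ndufa10 (0.47 and 0.99), Ndufs1 (0.44 and 0.92), Ndufs5 (0.51 and 0.63), Uqcrc2 (0.37 and 0.97), Cox6c (0.33 and 0.64) and Atp5f1 (0.42 and 1.01), all by limma over all features. The share of all features that passed against both was not counted. None of the 3 lower genes was called against day 3, where Ndufs8 gave -0.31, Ndufa7 -0.25 and Cox7c -0.37. With channels centred on their medians, Ndufa10 (0.39), Uqcrc2 (0.26), Ndufs1 (0.22) and Ndufa5 (0.17) stayed above 0 without being called, and Ndufs5, Cox6c, Ndufa4, Atp5f1 and Atp5o fell below 0.

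In knockout brain, 7 of the 74 genes were higher at P1 and 1 was lower (limma, 26348 features). The background was 23.9% of features called, 14% higher and 9.94% lower. The median difference was 0.25, beside -0.02 over all features. It was -0.095 against the E15 arrays of days 1 and 2, with 2 genes higher and 5 lower (22% of all features called). It was 0.61 against those of day 3, with 34 higher and 1 lower (26.6% of all features called). With channels centred on their medians it was -0.20, with 0 higher and 6 lower, beside 10.6% and 13.7% of all features. The 7 were Ndufa10, Ndufb5, Ndufb8, Ndufs5, Uqcrc2, Atp5f1 and Atp5o, and 5 calls were shared with control brain (41.7% of the control calls and 62.5% of the knockout calls), whose RNA was on the same arrays. How many of all features were called in both was not counted. On leaving out 1 knockout animal at a time, the calls of Ndufs5 and Atp5f1 held in 4 of 12 fits each and that of Uqcrc2 in 8 of 12, and the number of calls ran from 3 to 8.

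Ndufb5, an accessory subunit of complex I, differed by 0.63 ± 0.15 (SE) in knockout brain (limma, adjusted p = 0.00989) and by 0.65 ± 0.25 in control brain, where it was not called (adjusted p = 0.0695). Ndufb8 differed by 0.61 ± 0.17 (SE) in knockout brain (limma, adjusted p = 0.0187) and by 0.43 ± 0.15 in control brain (adjusted p = 0.0501). The 2 comparisons gave near values, and a call in only 1 of them is no difference between them.

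Sdha was the 1 lower gene. It read 8.53, 8.79, 9.14, 8.84, 8.12, 8.18, 8.26 and 8.78 in E15 knockouts 1 to 8. At P1 it read 7.42, 8.04, 8.02 and 8.09. All P1 knockouts were below all E15 knockouts, and the difference was -0.69 ± 0.20 (SE; limma, adjusted p = 0.0246). It was not called without P1 knockout 1, against the E15 arrays of days 1 and 2, or as the mean of both probes (over all alternatives, the difference ran from -0.93 to -0.42). The same gene differed by -0.11 ± 0.13 between the ages in control brain, and the test of the knockout effect between the ages gave -0.61 ± 0.27 (SE; limma, adjusted p = 0.816).

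The study's own question, knockout against control at each age, gave no call among these genes. At E15, 0 of 74 genes and 0% of 24511 features passed (limma; 6 genes and 1683 features had an unadjusted p under 0.05). The median log2 knockout over control was -0.05, with 49 of 74 below 0. At P1, 0 of 74 genes and 0% of 24980 features passed (limma; 15 genes and 2345 features had an unadjusted p under 0.05). The median was 0.05, with 50 of 74 above 0. On simulated data, this test recovered 75% of features changed by 0.5 on the log2 scale at E15 and 53% at P1. The simulated noise was normal and independent between replicates, without scan days, dyes or shared controls. These shares may thus be too high for these arrays, and changes of that size in single genes could be missed.

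By replicate, the median over the genes was 0.01, -0.10, -0.14, -0.16, 0.07, 0.06, -0.02 and -0.01 in E15 replicates 1 to 8. It was 0.07, 0.17, -0.08 and 0.16 in P1 replicates 1 to 4. The 3 lowest E15 replicates were scanned on day 3, and within day 3 the fitted median was -0.15, beside 0.03 in replicates 6 and 7 (day 2) and -0.02 in replicates 5 and 8 (days 1 and 2). At P1 the third replicate was below 0 and the other 3 above. Without loess normalization, with ratios only centred, the median was 0.040 at E15 and 0.16 at P1, so the sign at E15 depends on that step. The compared E15 samples also differed in muscle RNA. The median log2 knockout over control of 19 skeletal muscle genes ran from -3.21 (replicate 4) to 2.60 (replicate 8) at E15. At P1 it ran from -0.02 to 0.03. Some other cell types differed too. The median of 10 genes of meninges and fibroblasts ran from -2.43 (replicate 4) to 2.76 (replicate 8) at E15. At P1 it ran from -0.46 to 0.44. There, 7 astrocyte genes had medians of -0.52, 0.17, -0.51 and 0.10 in replicates 1 to 4. For 7 oligodendrocyte genes they were -0.31, 0.03, -0.47 and 0.21. The part of these differences in the ratios of the respiratory chain genes was not tested.

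Complex by complex the values stayed small. At E15 the medians of complexes I to V were -0.05, -0.09, -0.05, -0.09 and -0.03. At P1 they were 0.09, -0.03, 0.06, 0.06 and 0.04. The gene farthest from 0 at P1 was Sdha, at -0.996, -0.40, -0.70 and -0.09 in replicates 1 to 4 (mean -0.55 ± 0.15 SE; limma, adjusted p = 0.48). It was below 0 in all 4, and at E15 it ran from -0.71 to 0.72. Its second probe, well above background in all control channels, had a mean of -0.01 at P1. Atp5a1, the catalytic head's alpha subunit, was 0.56, 0.26, 0.51 and 0.27 in the E15 replicates of day 3 and -0.42, -0.23, -0.13 and -0.28 in the others, so its sign at E15 divided by scan day.

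The genes of lowest p at E15 were Ndufs7, Ndufaf1, Ndufs8, Ndufa10 and Cox7a1, all below 0 and none with an adjusted p under 0.72 (limma). Ndufs7, a core subunit that carries the last iron-sulphur cluster before ubiquinone, read -0.82, -0.24, -0.21, -0.58, 0.08, -0.59, -0.03 and -0.28, below 0 in 7 of 8 replicates. Ndufaf1 had a mean of -0.19 ± 0.06 (SE), Ndufs8 of -0.30 ± 0.10, Ndufa10 of -0.16 ± 0.06 and Cox7a1 of -0.21 ± 0.08.

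At P1 the 5 were Cox6a1, Ndufs7, Ndufa3, Ndufb4 and Cox6b1, all above 0 in 4 of 4 replicates, each with adjusted p = 0.454 (limma). At both ages the 5 were picked by p from these same replicates, so agreement in sign among replicates is no further support. The share of all features with 1 sign in all 4 P1 replicates was not counted. Ndufs7 read 0.39, 0.54, 0.18 and 0.33. Cox6a1 read 0.31, 0.40, 0.28 and 0.27, the narrowest of the 5. Ndufb4 read 0.64, 0.64, 0.28 and 0.20, Cox6b1 read 0.54, 0.32, 0.10 and 0.45, and Ndufa3 read 0.30, 0.32, 0.15 and 0.56.

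**Figure D4:**
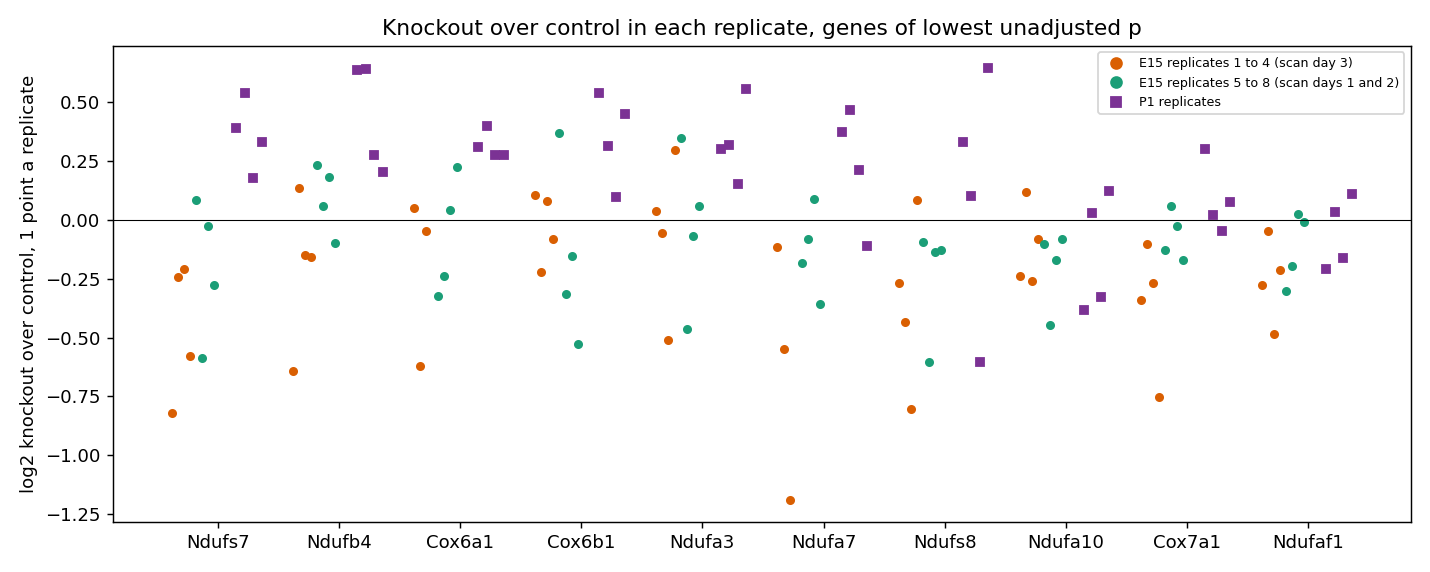
Log2 knockout over control (vertical axis) in each E15 replicate (8 circles, orange for scan day 3) and P1 replicate (4 squares) for the 10 genes of lowest unadjusted p. For Ndufs7 the 4 P1 replicates lie between 0.18 and 0.54, above all 8 E15 replicates, of which the highest is 0.08.

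The knockout effect was then compared between the ages. Of 23905 features, 76 (0.318%) were called by limma, and none of the 74 genes was among them (10 had an unadjusted p under 0.05). The median difference was 0.13 on the log2 scale, beside 0.01 over all features, with 55 of 74 above 0. Ndufs7 had the lowest p, with a difference of 0.69 ± 0.16 (SE; limma, adjusted p = 0.158). Its P1 replicates did not overlap its E15 replicates, and the share of all features without overlap was not counted. At each age, 1 Ndufs7 ratio of a replicate run in both dye orientations rested on only 1 of them, with no dye effect subtracted. Ndufb4 (0.49 ± 0.16), Cox6a1 (0.45 ± 0.14), Cox6b1 (0.44 ± 0.15) and Ndufa7 (0.56 ± 0.22, SE) followed, with adjusted p from 0.522 to 0.75. For Ndufs7, the level in knockout brain was 9.83 ± 0.56 (SD, n = 8) at E15 and 10.38 ± 0.08 (SD, n = 4) at P1, and in control brain 10.25 ± 0.42 (SD, n = 6) and 10.02 ± 0.16 (SD, n = 4). Its control difference between ages was -0.50 against the E15 arrays of days 1 and 2 and 0.34 against those of day 3.

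Other genes of the pathway were read from fixed lists in control brain, by the same test, in which 16.9% of all features were called higher and 16.3% lower. Of the subunits encoded in mitochondrial DNA, 4 had a probe and 3 were higher at P1: mt-Nd4 of complex I (1.44 ± 0.18 SE), mt-Atp6 of complex V (0.99 ± 0.21) and mt-Cytb of complex III (0.83 ± 0.20), with mt-Co2 of complex IV at 0.36 ± 0.24 and not called. Against the E15 arrays of days 1 and 2 all 4 were called higher, against those of day 3, 3 of 4, and with channels centred on their medians, 1 of 4. With channels centred, 12.3% of all features were called higher and 20.6% lower, here and for the lists below.

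Of 12 regulators of mitochondrial genes, 0 were higher and 4 lower at P1, and 0 and 7 with channels centred on their medians. Over all features, 16.3% were called lower and 33.2% in either direction. Polrmt, the mitochondrial RNA polymerase, fell by 0.70 (SE 0.11; limma, adjusted p = 8.85e-04), and Gabpb1, the partner subunit of GABP, fell by 0.35 (SE 0.10; adjusted p = 0.0223). Nrf1 and the nuclear receptor Esrra gave -0.32 and -0.34 and were also called. Of 16 genes of the citric acid cycle and pyruvate dehydrogenase, 4 were higher and 2 lower, led by Pdha1 (0.67 ± 0.15 SE) and Idh3a (0.58 ± 0.16 SE). With channels centred on their medians, the cycle's genes gave 0 higher and 3 lower.

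Of 14 assembly factors, 3 were higher and 4 lower (1 and 6 with channels centred on their medians). Lrpprc, which stabilises mitochondrial mRNAs, rose by 0.51 ± 0.10 (SE), and Cox10, which makes the haem of complex IV, rose by 0.57 ± 0.13 (SE). Of 18 transport genes, 4 were higher and 3 lower (0 and 5 with channels centred), with the outer membrane channel Vdac1 at 0.58 ± 0.07 (SE) and the aspartate-glutamate carrier Slc25a12 at 0.41 ± 0.09 (SE). Of 9 genes of electron carriers, 0 were called (limma; 1 had an unadjusted p under 0.05), with Coq6 of ubiquinone synthesis at -0.29 ± 0.12 and cytochrome c, Cycs, at 0.23 ± 0.12 (SE).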

How the data were processed

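The deposited scanner files (Agilent Feature Extraction) give mean and background intensity of both dyes for 43790 spots, per the file headers. The deposited matrix gives log10 ratios, used as an alternative, and differed from the scanner's log ratios by at most 0.005, the rounding of its 2 decimals. The authors' further steps are not given in the sources used here. With limma 3.58.1 in R 4.3.3, intensities were background-corrected (normexp, offset 50), loess-normalized within arrays without control spots, outlier spots set missing, and channels made comparable by quantile normalization of the mean log2 intensity. Levels were averaged per animal, within dye and then over dyes. Ratios were turned to log2 knockout over control and averaged over dye orientations. E15 replicates 3 and 4, with 1 orientation, had the mean dye effect of the other 6 subtracted. Where outlier spots left a gene with 1 orientation in another replicate, nothing was subtracted. Features well above background in at least 0.5 of the channels of an age were tested (lmFit, eBayes), with control sharing at E15 as a random block, and p adjusted over all features. At an adjusted p of 0.05 a feature was called. Genes named were, per complex, the 3 called genes of largest difference between ages in controls and the 2 against the complex's median, isoform sets, the 5 of lowest p for each knockout comparison, and 2 genes of each other list. All other called members, Atp5a1 and the genes split by scan day were added after their values were seen. The members and lists were chosen with earlier results of these data known. The labels do not say that animals came from separate litters, so p-values measure the spread between these samples. Probes were not checked for near-identical copies elsewhere, and several of these genes have processed pseudogenes. Tests were tried on simulated data. The number of arrays limits the precision. Alternatives are given at the end, and where probes of a gene were averaged, each probe was first centred on its own mean level.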

Additional observations from a re-analysis of the deposited data

Results flagged for a closer look

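Of 117 groups of 4 to 10 animals or replicates 8 held a value far from the others (Dixon's criterion, 95%), which is 6.84% where chance flags about 1 group in 20. Among control levels, Cox6a2 at 9.20 and Cox8b at 8.12 in E15 control 1 stood above the other E15 controls (at most 7.55 and 6.47). Atp5f1 was low at 10.83 in E15 control 2 (others from 11.58), Cox6c at 11.996 in P1 control 1 (others from 12.08) and Sdhb at 9.82 in P1 control 2 (others from 10.09). Among knockout levels, Sdha was low at 7.42 in P1 knockout 1 (others from 8.02) and Uqcrc2 at 9.58 in E15 knockout 3 (others from 10.37), an animal with 1 array. The log2 knockout over control of Ndufb4 was -0.64 in E15 replicate 1 (others from -0.16).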

How the results depend on the processing

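Calls of knockout over control among the 74 genes were 0 at each age and 0 for the difference under every alternative run. The comparisons between ages were less stable. With channels centred on their medians, the median of the genes was -0.38 in control and -0.20 in knockout brain. In each, 37 of 74 genes went from above to below 0. Among the named genes called under either scaling, in control brain Atp5f1 (-0.016), Atp5o (-0.34), Cox6c (-0.21), Ndufa4 (-0.030), Ndufs5 (-0.14) and Sdhd (-0.39) changed sign, and in knockout brain Atp5f1 (-0.052), Atp5o (-0.18) and Ndufb8 (-0.012). Against the E15 arrays of scan day 3, chosen after seeing the data, 32 genes were called in control and 35 in knockout brain, with medians of 0.38 and 0.61, and 16 of 74 genes changed sign in control brain, of which Atp5e (0.40) and Cox7a2l (0.50) were among the called. Against those of days 1 and 2, 23 were called in control brain, the knockout median was -0.095, and 21 of 74 changed sign in control brain, among them Cox6b1, called at -0.44. With ratios centred and no loess, the median knockout over control was 0.040 at E15 and 0.16 at P1, and in the E15 replicates of scan day 3 it was -0.15. Leaving out 1 animal at a time gave 8 to 13 calls in control brain and 3 to 8 in knockout brain, where it was 5 without E15 knockout 2, 4 without P1 knockout 1 or 2, 5 without P1 knockout 3 and 3 without P1 knockout 4. With a replicate block, the median difference of the knockout effect between ages was 0.24 in place of 0.13, with 0 calls. The replicate numbers share only a number: correlations of same-numbered deviations ran from -0.12 to 0.14. A scan-day block at P1 could not be fitted, since P1 had 1 scan day. The causes of these shifts were not tested. Signal limits Cox8c, which was not well above background. Cox4i2 and Cox8b were also dim, with a mean log2 signal of 6.31 and 6.34. They were well above background in 95.5% and 90.9% of control channels, so signal limits their differences too.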
